A study of Mus musculus with 66 samples.

Results

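ATP-binding cassette (ABC) transporters of mouse small intestinal organoids were taken as every transcript in the deposited RNA table whose gene symbol begins with Abc, a family letter from a to g and a number. This rule, which used no measured value, gave 29 transcripts of 28 genes. The whole table held 9481 transcripts under 8978 symbols, and 92 spike-ins. Family members that carry other symbols, such as Cftr, Tap1 and Tap2, fell outside the rule. The organoids, Lgr5 GFPDTR/+, were grown from mouse small intestine in 3 media. CV was the regular medium (ENR: EGF at 50 ng/mL, 10% Noggin, 5% R-Spondin) with CHIR99021 at 3 µM and valproic acid at 1 mM. EN was the regular medium without R-Spondin. CV was made to enrich stem cells, EN to enrich differentiated cells, mainly enterocytes, and ENR was the mixed reference. All 3 media held EGF and Noggin, all organoids carried the GFP and diphtheria toxin receptor allele at Lgr5, and the sources used here name 1 organoid genotype for these libraries. No label says that replicates came from separate mice or cultures, so p-values measure the spread between these libraries, which may be technical.

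ABC transporters bind and hydrolyse ATP to move lipids, sterols, bile acids, conjugated metabolites and drugs across membranes. In the small intestine the apical exporters of enterocytes return plant sterols, conjugates and xenobiotics to the lumen, and the basolateral members send conjugates to the blood. Family members of the mitochondrion, lysosome and peroxisome handle porphyrins and related compounds, cobalamin, peptides and acyl-CoAs. The E and F families have no membrane part and are linked to translation. Many full-length members work alone, whereas Abcg5 and Abcg8 form a heterodimer and the D family members form dimers.

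RNA and ATAC-seq had 4 libraries per culture, and 3 libraries per culture were analysed for each histone mark. RNA libraries held 5630977 to 8859757 estimated counts on genes. ABC transcripts took 0.354% to 0.365% of these counts in CV, 0.248% to 0.257% in ENR and 0.388% to 0.401% in EN. The cultures were checked with marker lists, as sums over each list in TPM, a length-corrected share of the transcripts counted in a library. Enterocyte genes summed to 17900 to 19000 TPM in CV, 9850 to 11400 in ENR and 51200 to 58700 in EN, and all 10 rose from CV to EN. Between CV and ENR most of these genes went against the sum, with 6 of 10 lower in CV, 4 of them by at least 2-fold. Another 3 were higher in CV, and the median log2 change was -0.57. Stem cell genes summed to 469 to 520 in CV, 1230 to 1310 in ENR and 24.9 to 27.6 in EN. Proliferation genes summed to 654 to 692 TPM in CV, 679 to 702 in ENR and 160 to 172 in EN. Of the stem cell genes, 5 of 6 were lower in CV than in ENR, against the label of stem cell enrichment. Only 1 was lower by at least 2-fold, and the median log2 change was -0.56. The paper reports that cells with the Lgr5 reporter predominate in CV organoids. It also reports stem cell markers as enriched in CV and depleted in EN, in both RNA and protein. Here all 6 stem cell genes were at least 2-fold lower in EN than in CV, with a median log2 change of -4.47. Other cell types also moved with the media. Goblet cell genes (6 of 7 in the table) rose from 1690 to 1810 TPM in CV to 10500 to 12600 in EN, with 3060 to 3250 in ENR. Enteroendocrine genes (3 of 6) rose from 33.5 to 54.6 in CV to 1330 to 1600 in EN, with 507 to 526 in ENR. Tuft cell genes went from 1.23 to 2.77 TPM in CV to 32.6 to 46.3 in EN (18.2 to 19.2 in ENR). Paneth cell genes went from 8260 to 9240 to 5970 to 6450 (22700 to 24800 in ENR). Genes of cells outside the epithelium (5 of 8 in the table) went from 3.64 to 4.94 to 16.5 to 21.8 (6.96 to 9.34 in ENR). All goblet, enteroendocrine and tuft cell genes tested were also higher in EN than in ENR. The paper states that Muc2, Dclk1 and Reg4, which are in these lists, were not enriched in EN over ENR. The part of these cell types in the ABC results was not tested. In bulk RNA, fewer cells of a type and less RNA per cell cannot be told apart. CHIR99021 and valproic acid were in CV medium alone. In comparisons with CV, direct effects of these compounds cannot be told apart from differences in cell type. Per the paper, CV organoids were also kept in their medium for longer than EN organoids. In EN against CV, an effect of this time cannot be told apart from medium or cell type.

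To determine which ABC transporters differ between EN and CV, every transcript detected (count above 0) in 4 or more libraries was tested in 1 fit. These were 9288 in all, at a threshold of 0.01 on the adjusted p. All 29 ABC transcripts were among them. The sterol exporter genes Abcg5 and Abcg8 and the conjugate exporter genes Abcc6, Abcc2, Abcc3 and Abcg2 were higher in EN than in CV. Abcc1, Abcc4, Abcb1b and the ribosome recycling gene Abce1 were lower. In total 15 ABC transcripts were higher in EN, 9 were lower and 5 did not pass. Over all transcripts tested, 76.4% passed, 35.2% as higher and 41.2% as lower, so that passing was common. At a change of at least 2-fold, 9 ABC transcripts were higher and 6 lower, against 35.4% of all transcripts in either direction. The median log2 fold change was 0.45 over the 29 ABC transcripts and 0.39 over the 26 whose counts lay above the detection floor of 3, against -0.08 over all transcripts.

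These differences are relative to the other transcripts of a library, and the scale matters. The median log2 change of all transcripts from CV to EN was -0.08 after TMM normalization, -0.34 on log2(TPM + 1), -0.49 when counts were scaled to spike-ins and 0.62 on the deposited mRNA copies. With spike-in scaling 9 ABC transcripts were higher and 10 lower in EN than in CV, on TPM 10 and 11, and on the deposited copies 17 and 4. From ENR to EN the same medians were -0.01, -0.14, -0.52 and 0.88, and the ABC counts were 16 higher and 5 lower after TMM, 14 and 6 on TPM, 11 and 6 with spike-ins and 20 and 2 on copies. Spike-in scaling and the deposited copies both draw on spike-ins, yet their medians differed in sign in both comparisons. The reason was not tested, so neither is taken here as an absolute scale. Members whose direction turned with the scale are named as such. The plot of RNA changes shows the members reported here that lie above the floor.

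**Figure D1:**
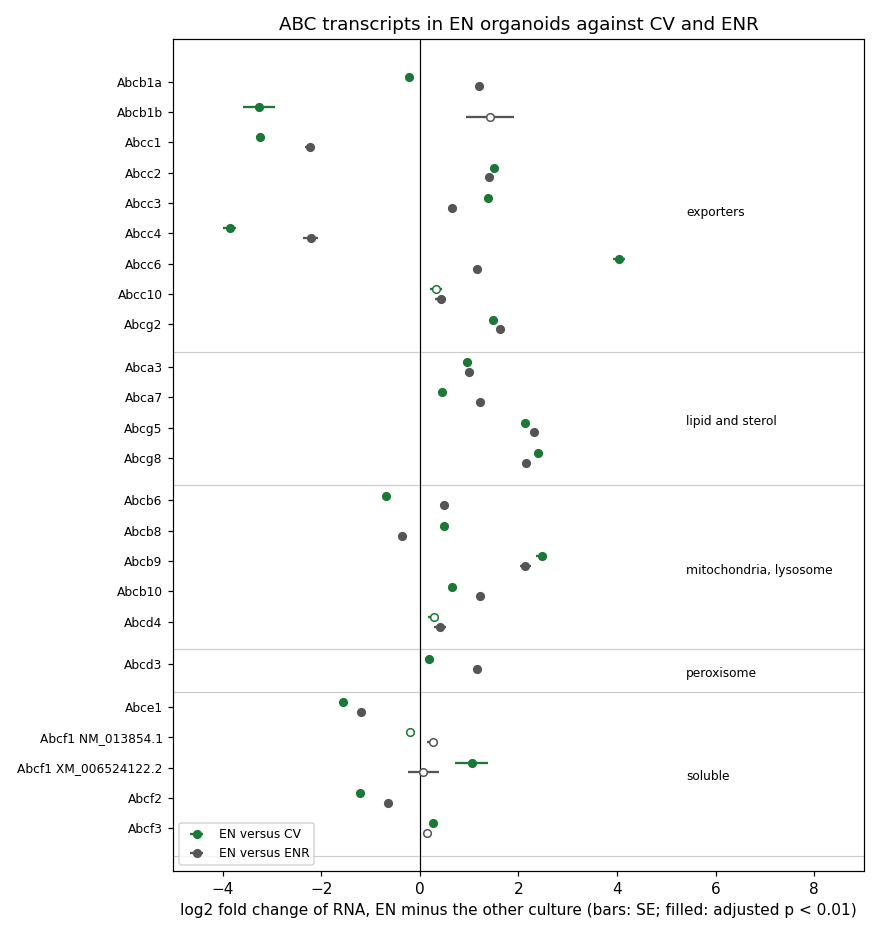
Log2 fold change of RNA (x axis) of the ABC transcripts reported here above the detection floor, EN minus CV in green and EN minus ENR in grey, with the standard error as bars. Filled points passed an adjusted p under 0.01, and members are grouped by role, with Abcc6 farthest right (4.04) and Abcc4 farthest left (-3.86) in EN against CV.

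EN was also compared with the regular culture. From ENR to EN 16 ABC transcripts rose, 5 fell and 8 did not pass. Over all transcripts 72.7% passed, 35.5% as higher and 37.2% as lower, and 30.1% passed with a change of at least 2-fold, as did 15 ABC transcripts, 12 higher and 3 lower. The ABC median was 0.66 (0.83 over the 26 above the floor) against -0.01 over all transcripts. Both comparisons use the same 4 EN libraries and are therefore not independent of each other.

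The lipid and sterol transporters were led by Abcg5 and Abcg8, whose products pair in the apical membrane and pump cholesterol and plant sterols back into the lumen. Abcg5 (NM_031884.2) had 162, 159, 160 and 163 CPM (counts scaled to library size, not to length) in the CV libraries, 144, 136, 143 and 146 in ENR, and 687, 706, 746 and 706 in EN. Abcg8 (XM_006524826.3) had 102, 89.6, 92.9 and 100 CPM in CV, 113, 108, 117 and 117 in ENR, and 521, 507, 518 and 491 in EN. Every EN library of both genes lay far above every CV and ENR library. In EN, Abcg5 was 4.42-fold higher than in CV (log2 2.14 ± 0.04 SE, adjusted p = 1.1e-16) and 5-fold higher than in ENR. Abcg8 was 5.29-fold higher than in CV (log2 2.40 ± 0.05 SE, adjusted p = 4e-16) and 4.47-fold higher than in ENR. Against these, the differences between CV and ENR were small, 0.18 for Abcg5 and -0.24 for Abcg8 on the log2 scale, and neither passed with spike-ins (adjusted p = 0.72 and 0.13).

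Abca3, a phospholipid transporter best known from lung lamellar bodies, rose by 0.95 ± 0.04 from CV to EN and by 1.00 ± 0.04 from ENR to EN, the latter not passing with spike-ins (0.48, adjusted p = 0.017). Abca7, a phospholipid transporter related to the cholesterol exporter Abca1, had 46.1 ± 3.78 CPM (SD, n = 4) in CV, 26.8 ± 2.39 in ENR and 62.9 ± 3.68 in EN. Its rise of 0.45 ± 0.07 from CV to EN passed with TMM but not with spike-ins (0.03, adjusted p = 0.9) or on TPM (0.12, adjusted p = 0.16), while its rise from ENR to EN was 1.23 ± 0.08. The other 3 lipid and bile transporters were near the limit of detection. Abca13 and Abcb11, the bile salt export pump of the liver, had at most 3 counts in any library, and differences were not detectable at this depth. Abcb4, which moves phosphatidylcholine into bile, had 3 to 7 counts per CV library, at most 2 per ENR library and 0 in every EN library. It was at least 1.22-fold lower in EN than in CV, taking 3 counts in each EN library as the floor, and it is counted among the 9 that fell, though it did not pass on the deposited copies (-0.14, adjusted p = 0.13). Of 23 lipid, sterol and bile salt transporters listed, 7 were measured, and 4 rose, 1 fell and 2 did not pass from CV to EN. Neither of the 2 potassium channel subunit genes of the family was in the test.

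Genes that work beside the sterol pump changed in the same comparison. Of 9 sterol and bile partners measured, 8 rose and 1 fell from CV to EN, with a median log2 change of 2.46. Over all transcripts tested 35.2% rose and 41.2% fell. Npc1l1, the cholesterol uptake protein of the brush border, rose by 1.46, Soat2, which esterifies cholesterol, by 3.32, Mttp, which loads lipid onto nascent chylomicrons, by 1.75 and Apob, their scaffold protein, by 2.46. Slc51a and Slc51b, which form the basolateral bile acid exporter, rose by 4.94 and 5.29. Npc1, which moves cholesterol out of lysosomes, was the exception and fell by 0.50. Among nuclear receptors and other regulators of these genes, 6 of 8 measured (15 were listed) rose and none fell, against the same shares. Hnf4g went from 122 to 1410 CPM (3.52), Rxra from 46.5 to 235 CPM (2.34) and Ppara from 50.9 to 195 CPM (1.94). Nr1h4, the bile acid receptor, rose by 0.74. Hnf4a had 726 CPM in CV and 703 in EN, a log2 difference of -0.05 that did not pass. From ENR to EN, 4 of the 8 regulators rose, none fell and 4 did not pass.

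**Figure D2:**
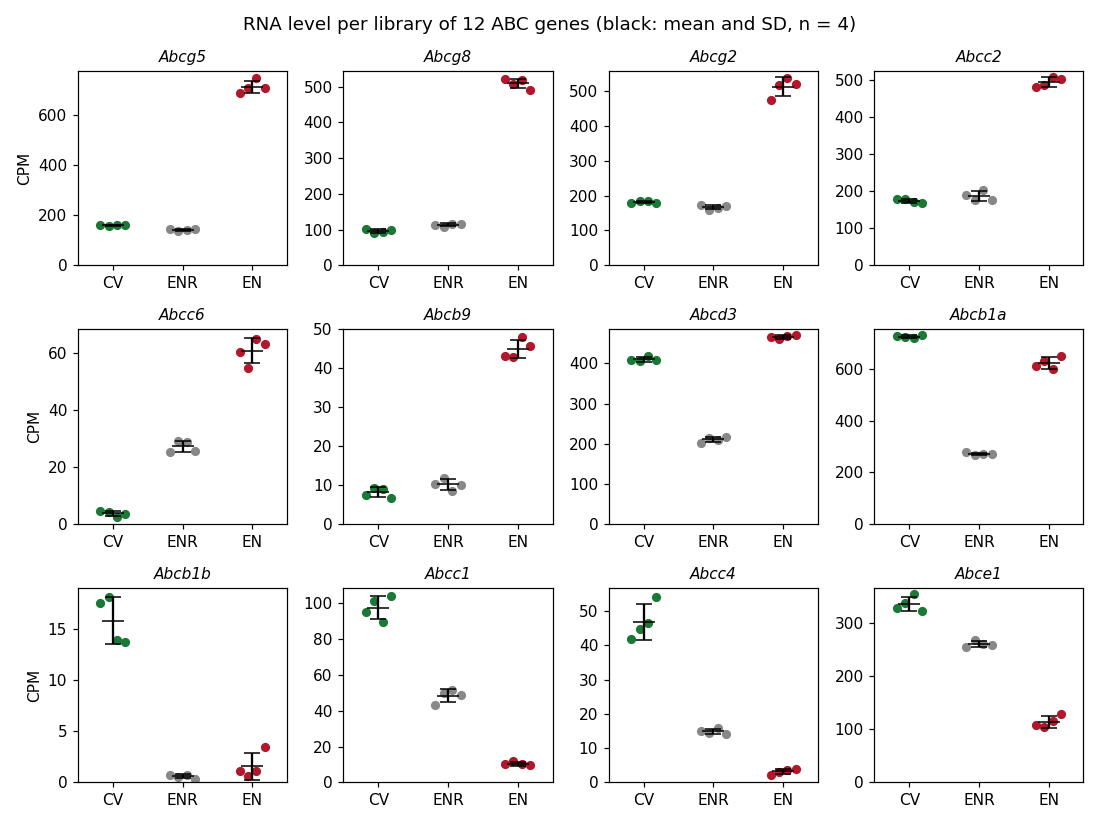
RNA level in CPM (y axis, from 0) of 12 ABC genes in each library of CV (green), ENR (grey) and EN (red), with the mean and SD (n = 4) in black. Abcg5, Abcg8, Abcg2, Abcc2 and Abcb9 are set apart in EN alone, Abcd3 and Abcb1a are lowest in ENR, and Abcc1, Abcc4 and Abce1 are lowest in EN.

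The exporters of drugs and conjugates split. Of 9 measured, 4 rose, 4 fell and 1 did not pass from CV to EN, and 6 rose, 2 fell and 1 did not pass from ENR to EN. Those higher in EN were Abcc6, Abcc2, Abcc3 and Abcg2. Abcc6, which exports ATP and limits mineralisation, had 4.58, 4.14, 2.52 and 3.49 CPM in CV, 25.2, 29.3, 28.7 and 25.8 in ENR, and 60.4, 54.8, 64.9 and 63.2 in EN. The cultures formed 3 separate levels, and the rise from CV to EN was 16.5-fold (log2 4.04 ± 0.12 SE, adjusted p = 7.3e-14). CV rested on 19 to 34 counts per library. Abcc2, the apical exporter of glucuronide and glutathione conjugates, had 178, 180, 170 and 168 CPM in CV, 190, 175, 203 and 177 in ENR, and 481, 485, 507 and 502 in EN. Abcg2, the apical exporter of urate and many drugs, had 179, 186, 183 and 178 CPM in CV, 172, 160, 163 and 170 in ENR, and 473, 516, 537 and 519 in EN. For both genes EN stood alone above overlapping or adjacent CV and ENR levels, with log2 rises of 1.51 ± 0.05 and 1.49 ± 0.04 from CV and of 1.41 and 1.62 from ENR. Abcc3, the basolateral exporter of bile acids and glucuronides, rose stepwise, from 106 ± 5.92 CPM (SD, n = 4) in CV to 175 ± 13 in ENR and 276 ± 14.5 in EN, the step from ENR to EN not passing with spike-ins (0.15, adjusted p = 0.45).

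The exporters lower in EN were Abcc4, Abcc1, Abcb1b and Abcb1a. Abcc4, an exporter of cyclic nucleotides and prostaglandins, had 41.8, 44.7, 46.4 and 54.2 CPM in CV, 15.1, 14.4, 15.9 and 14.1 in ENR, and 2.28, 3, 3.57 and 4.03 in EN. It was 14.5-fold lower in EN than in CV (log2 -3.86 ± 0.14 SE, adjusted p = 5.8e-13), with 14 to 28 counts in each EN library. Abcc1, the basolateral exporter of leukotriene C4 and glutathione conjugates, had 95.3, 101, 89.3 and 104 CPM in CV, 43.3, 50.1, 51.3 and 48.8 in ENR, and 10.3, 11.8, 9.99 and 9.5 in EN. It was 9.44-fold lower in EN than in CV (log2 -3.24 ± 0.08 SE, adjusted p = 1.2e-14). For both genes the 3 cultures did not overlap, in the order CV, ENR, EN.

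The P-glycoprotein paralogs Abcb1a and Abcb1b export hydrophobic drugs. Abcb1a had 727, 724, 719 and 730 CPM in CV, 276, 265, 271 and 270 in ENR, and 611, 629, 601 and 651 in EN. It was lowest in ENR, 2.30-fold below EN (log2 1.20 ± 0.03, adjusted p = 2.9e-14), and the small difference between EN and CV (-0.22 ± 0.03, adjusted p = 1e-05) turned to 0.63 on the deposited copies. Abcb1b had 17.5, 18.1, 13.9 and 13.7 CPM in CV, 0.768, 0.491, 0.759 and 0.378 in ENR, and 1.07, 0.642, 1.07 and 3.46 in EN. It was 9.58-fold lower in EN than in CV (log2 -3.26 ± 0.32, adjusted p = 1.4e-07) and 25.7-fold higher in CV than in ENR. EN and ENR overlapped at 3 to 24 estimated counts per library, and their difference of 1.43 ± 0.49 did not pass (adjusted p = 0.014), though it did without EN1 (1.61, adjusted p = 0.0099) or EN2 (1.63, adjusted p = 0.0051) and by DESeq2 (1.48, adjusted p = 0.0036), and it was 0.66 without EN4. Abcb1a, Abcb1b and Abcb4 are close paralogs, and reads common to them could have been split between them in counting. Abcc10, a broad-range exporter, had 22.8 ± 2.87 CPM (SD, n = 4) in CV, 21.2 ± 1.85 in ENR and 28.5 ± 4.88 in EN, and its log2 difference of 0.32 ± 0.12 from CV to EN did not pass (adjusted p = 0.025), was past the threshold without EN4 (0.42), by DESeq2 (0.38, adjusted p = 0.0077) and on the deposited copies (0.96, adjusted p = 0.00016), and turned to -0.11 with spike-ins.

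Abcd3, a peroxisomal transporter of branched chain acyl-CoAs and bile acid precursors, had 408, 406, 418 and 408 CPM in CV, 202, 214, 210 and 216 in ENR, and 465, 460, 468 and 472 in EN. It was lowest in ENR, by 1.15 ± 0.03 on the log2 scale below EN, and the small rise from CV to EN (0.19 ± 0.03, adjusted p = 3.7e-05) turned to -0.13 on log2(TPM + 1), where it passed as lower (adjusted p = 0.0012), and to -0.23 with spike-ins. All 9 transcripts of the 8 peroxisomal partner genes rose from CV to EN, against 35.2% of all transcripts tested. Among them were Slc27a2, a very long chain acyl-CoA synthetase (4.05), and Hsd17b4 and Ehhadh, enzymes of peroxisomal beta-oxidation (1.80 and 1.55).

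Among the 6 transporters of mitochondria and lysosomes, 3 rose, 2 fell and 1 did not pass from CV to EN. Abcb9, a lysosomal peptide transporter, had 7.41, 9.34, 9.01 and 6.63 CPM in CV, 10.4, 11.8, 8.5 and 10.1 in ENR, and 43.3, 42.8, 48 and 45.6 in EN, and was 5.55-fold higher in EN than in CV (log2 2.47 ± 0.11, adjusted p = 1.2e-11). CV and ENR overlapped, and EN lay above both. Abcb10, a mitochondrial protein needed for haem synthesis, rose by 0.66 ± 0.06 from CV and by 1.22 ± 0.06 from ENR, the first of which did not pass with spike-ins (0.23, adjusted p = 0.23). Abcb8, a mitochondrial protein tied to iron export, rose from CV to EN by 0.50 ± 0.06, which did not pass with spike-ins (0.09, adjusted p = 0.69), but fell from ENR to EN by 0.37, a direction that turned to 0.61 on the deposited copies. Abcb6, a porphyrin transporter, fell from CV to EN by 0.68 and rose from ENR to EN by 0.50, with the first at 0.08 on the deposited copies and the second at -0.01 with spike-ins. Abcd4, which brings cobalamin out of lysosomes, had 10.9 ± 0.974 CPM (SD, n = 4) in CV, 9.99 ± 0.794 in ENR and 13.2 ± 1.46 in EN, and the EN and CV libraries overlapped (0.28 ± 0.11, adjusted p = 0.032), with -0.13 with spike-ins and 0.96 on the deposited copies, the latter past the threshold (adjusted p = 2e-04). Genes of iron-sulfur cluster assembly were mixed, with 2 of 11 higher, 4 lower and 5 that did not pass, led by Nfs1, the cysteine desulfurase (-0.60).

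Of the 5 soluble transcripts, 2 fell, 2 rose and 1 did not pass from CV to EN. Abce1, which splits ribosomes after termination, had 329, 338, 355 and 323 CPM in CV, 255, 268, 262 and 259 in ENR, and 109, 104, 116 and 128 in EN. The levels of the 3 cultures were separate, and EN was 2.94-fold below CV (log2 -1.55 ± 0.05, adjusted p = 5.2e-13) and 2.28-fold below ENR, the latter not passing on the deposited copies (-0.31, adjusted p = 0.26). Abcf2, an F family protein of the cytosol, fell by 1.22 on the log2 scale from CV and by 0.64 from ENR, where the deposited copies gave -0.49 (adjusted p = 0.068) and 0.33. Abcf3, a further F family protein, rose slightly from CV (0.27 ± 0.05, adjusted p = 0.00029), a direction that turned to -0.14 with spike-ins and -0.05 on log2(TPM + 1). Abcf1, which binds eIF2 and promotes initiation, is listed as 2 transcripts whose shared reads may be divided between them. NM_013854.1 had 111 ± 12.9 CPM (SD, n = 4) in CV, 81.2 ± 3.04 in ENR and 97.2 ± 16 in EN, a difference of -0.19 ± 0.10 between EN and CV that did not pass (adjusted p = 0.093), passed with spike-ins (-0.62, adjusted p = 0.0037) and turned to 0.60 on the deposited copies. XM_006524122.2 had 8.56 ± 4.91, 17 ± 2.21 and 17.5 ± 5.16 CPM, and its difference of 1.05 ± 0.34 between EN and CV, where libraries overlapped, passed narrowly (adjusted p = 0.0095) and no longer passed without any of CV2, CV4, EN1, EN3 or EN4 (adjusted p from 0.01 to 0.03). Of 10 transcripts of partner genes in ribosome rescue and initiation, 7 fell, 2 rose and 1 did not pass from CV to EN. Over all transcripts tested 41.2% fell and 35.2% rose. The subunits of eIF2 fell together, Eif2s1 by 1.08, Eif2s2 by 1.13 and Eif2s3x by 1.06, and Etf1, the release factor, fell by 0.74.

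CV and ENR were compared to see how the transporters differ between the medium with CHIR99021 and valproic acid and the regular medium. Of the ABC transcripts 12 were higher in CV, 5 were lower and 12 did not pass, against 60.0% of all transcripts that passed, 30.2% as higher and 29.8% as lower. With a change of at least 2-fold 5 were higher and 1 lower, against 12.9% of all transcripts. With spike-ins 7 were higher and 5 lower, and on the deposited copies 9 and 1. Those higher were Abcb1b (4.69 ± 0.37), Abcc4 (1.65 ± 0.11), Abcb1a (1.42 ± 0.03), Abcb6 (1.18 ± 0.06) and Abcc1 (1.01 ± 0.07), and the lower was Abcc6 (-2.88 ± 0.13). The median over ABC transcripts was 0.13 (0.14 above the floor) against -0.01 over all. The apical exporters Abcg2 (0.13, adjusted p = 0.019) and Abcc2 (-0.10, adjusted p = 0.077) did not pass between CV and ENR, though on log2(TPM + 1) Abcg2 did (0.28, adjusted p = 1.3e-05) and Abcc2 turned to 0.06.

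Levels were compared between genes in TPM, which accounts for transcript length. In CV the most abundant ABC transcript was Abcb1a with 233 ± 3.42 TPM (SD, n = 4), followed by Abcd3 with 200 ± 2.30, Abce1 with 146 ± 4.78 and Abcg2 with 143 ± 2.13, the last 2 within their spread of each other. In ENR the order was Abcg2 with 117 ± 3.86, Abce1 with 101 ± 2.25, Abcd3 with 92.3 ± 2.83 and Abcg5 with 89.9 ± 2.77, where Abcd3 and Abcg5 did not differ beyond their spread. In EN Abcg5 was first with 403 ± 11 TPM, Abcg2 second with 322 ± 13.5, and Abcg8 and Abcd3 shared the next place with 183 ± 6.56 and 183 ± 3.30. Abcb1a followed with 161 ± 5.63 and Abcc2 with 119 ± 2.28. Among members above the detection floor, the lowest in EN were Abcc4 with 0.731 ± 0.166 and Abcb1b with 0.474 ± 0.382, which overlapped. The ABC transcripts together summed to 1370 to 1414 TPM in CV, 922 to 951 in ENR and 1782 to 1842 in EN.

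**Figure D3:**
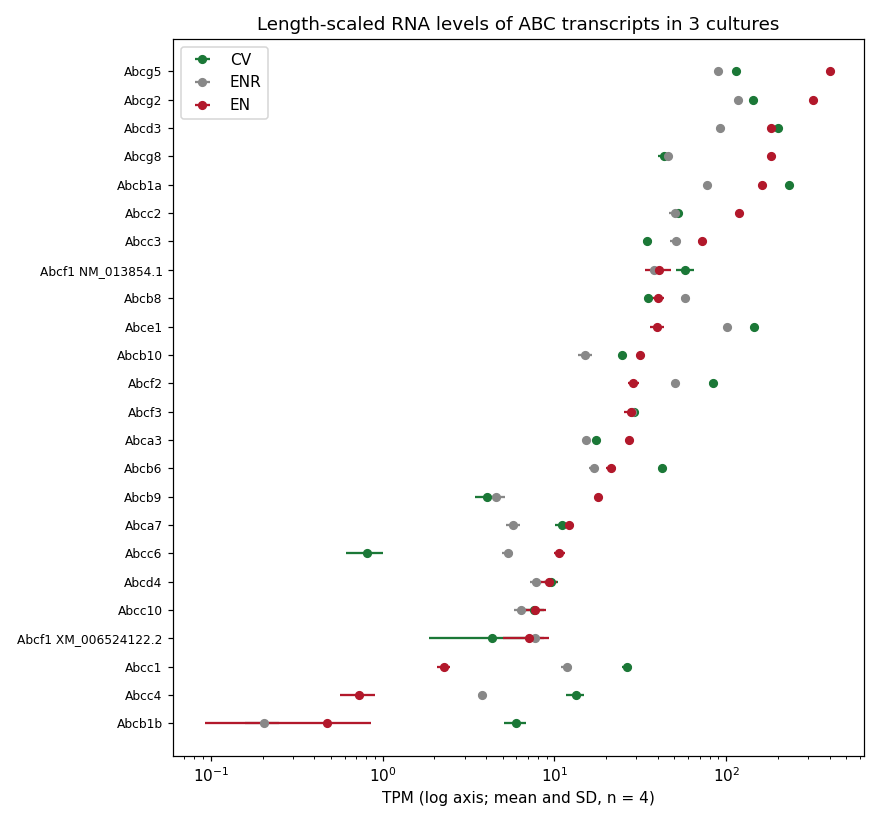
TPM (x axis, log scale) of the ABC transcripts reported here above the detection floor in CV (green), ENR (grey) and EN (red), as the mean and SD of 4 libraries, ordered by EN. Abcg5 is highest in EN at 403 TPM and Abcb1a is highest in CV at 233 TPM.

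Chromatin was examined at regions of the deposited union of peaks that lie within 500 bp of an annotated start site of an ABC gene (mm9). There were 29 such regions for 26 genes among 18086 start-site regions and 94469 regions in all, and Abca13 and Abcb11 had none. Abcg5 and Abcg8 share 1 region. They lie head to head on opposite strands of chromosome 17, Abcg5 at chr17:85057574-85082351 and Abcg8 at chr17:85075642-85099673, and the annotated spans overlap. The sequence between the outermost Abcg5 start and the Abcg8 start that faces it is shown because 1 short stretch lies upstream of both subunit genes. It is the plus strand of chr17:85082332-85082480, with the 109 bases between the 2 start sites in capitals.
Abcg5-Abcg8: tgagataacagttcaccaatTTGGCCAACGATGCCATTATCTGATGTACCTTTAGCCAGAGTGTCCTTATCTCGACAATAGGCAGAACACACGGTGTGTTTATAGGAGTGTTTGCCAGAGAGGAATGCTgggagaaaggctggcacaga

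ATAC scores, read counts that the authors normalized and rounded, measure how open a region is. In the region around this stretch (chr17:85082099-85082573) they were 36, 39, 35 and 54 in CV, 43, 52, 44 and 44 in ENR, and 63, 65, 72 and 94 in EN. Every EN library lay above every CV and ENR library, and the log2 differences were 0.83 ± 0.16 from CV (adjusted p = 0.00053 by limma) and 0.66 ± 0.16 from ENR (adjusted p = 0.0058 by limma). From CV to EN, 12 of the 29 ABC start-site regions changed, 8 higher and 4 lower, against 35.2% of all regions and 34.5% of all start-site regions. From ENR to EN, 7 changed, 6 higher and 1 lower, against 24.0% of all regions and 19.8% of start-site regions, and 4 changed without ENR4. After quantile normalization 6 were higher and 5 lower in EN than in CV, and 3 and 3 against ENR. The ABC shares were therefore near the background. Of the 12 regions changed from CV to EN, 8 lay at genes whose RNA changed the same way, 3 at genes whose RNA changed the opposite way and 1 at Abcd4, whose RNA difference did not pass.

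Start-site openness and RNA are set side by side here for Abcc3, Abcc6, Abcb1b and Abcc1. The 3 regions that changed opposite to the RNA from CV to EN are not among the regions shown. At Abcc3 (chr11:94253539-94254394) ATAC scores were 14, 10, 14 and 11 in CV, 18, 17, 14 and 17 in ENR, and 15, 24, 21 and 21 in EN. EN lay above CV in every library, by 0.68 ± 0.20 (adjusted p = 0.012 by limma), and overlapped ENR. At Abcc6 (chr7:53285310-53285944) they were 35, 34, 34 and 35 in CV, 90, 89, 67 and 69 in ENR, and 44, 68, 57 and 66 in EN. CV was lowest (0.73 ± 0.15 below EN, adjusted p = 0.00095 by limma), while ENR, with less Abcc6 RNA than EN, had scores as high as EN or higher (-0.42, adjusted p = 0.05, not passed). At Abcb1b (chr5:8797933-8798906) CV had 49, 45, 39 and 42, ENR 18, 22, 26 and 17, and EN 17, 12, 20 and 18. CV stood alone, as it did in RNA, with EN lower by 1.35 ± 0.19 (log2 -1.35, adjusted p = 2e-05 by limma). At Abcc1 (chr16:14361355-14362984) the scores were 71, 69, 47 and 70 in CV, 70, 66, 67 and 63 in ENR, and 63, 65, 72 and 66 in EN. These overlapped, with a difference of 0.07 between EN and CV that turned to -0.07 without CV3 and -0.09 after quantile normalization, at a gene whose RNA differed 9.44-fold.

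**Figure D4:**
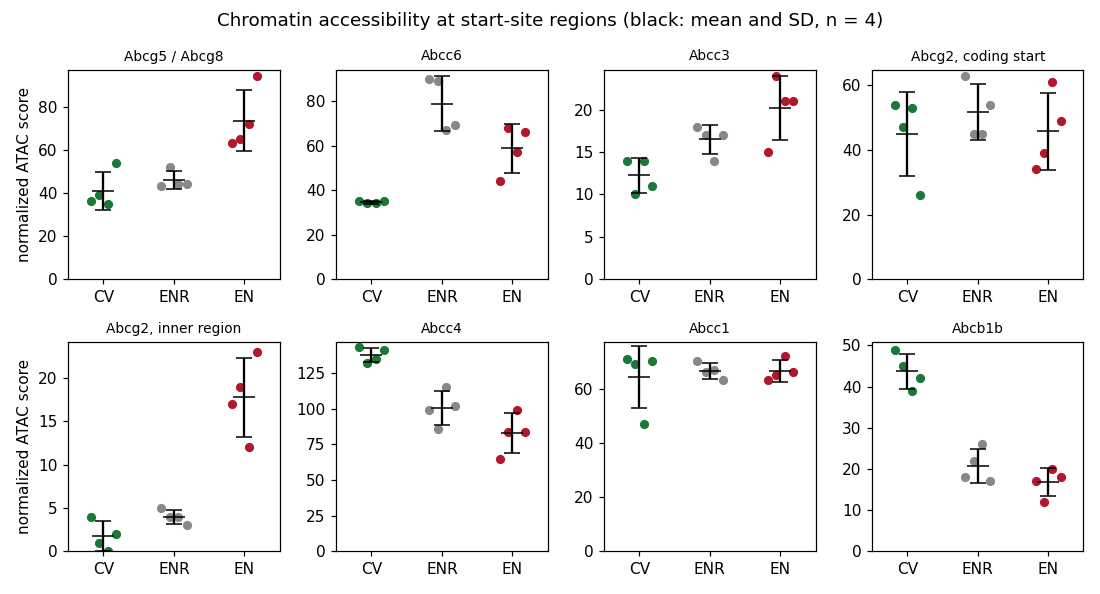
ATAC score (y axis, from 0) of start-site regions of ABC genes in each library of CV, ENR and EN, with the mean and SD (n = 4) in black. The shared Abcg5 and Abcg8 region is highest in EN (63 to 94), the Abcc4 region is highest in CV (132 to 143), and the Abcc1 region overlaps between cultures.

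Abcc4 had the largest measured fall in RNA above the floor, and its promoter is shown for that reason. The window covers 250 bases before to 30 after the RefSeq start, on the minus strand at chr14:119105412-119105691 in mm9, with an E-box (CACGTG) in capitals.
Abcc4: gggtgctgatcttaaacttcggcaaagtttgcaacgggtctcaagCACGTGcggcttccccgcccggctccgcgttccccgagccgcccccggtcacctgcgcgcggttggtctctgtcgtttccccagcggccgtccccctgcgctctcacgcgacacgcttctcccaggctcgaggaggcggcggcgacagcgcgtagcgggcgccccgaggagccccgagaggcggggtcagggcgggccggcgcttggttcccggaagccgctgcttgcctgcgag
The Abcc4 start-site region (chr14:119104670-119105913) had ATAC scores of 143, 132, 135 and 141 in CV, 99, 86, 115 and 102 in ENR, and 65, 84, 99 and 84 in EN. CV lay above both other cultures, and EN was lower by 0.74 ± 0.12 (log2 -0.74, adjusted p = 0.00015 by limma).

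Abcg2 had 2 start-site regions. Around the start of its coding transcripts (chr6:58590133-58591518) the ATAC scores were 54, 47, 53 and 26 in CV, 63, 45, 45 and 54 in ENR, and 34, 39, 61 and 49 in EN, which overlapped (0.04 between EN and CV, not passed). A narrow region inside the gene (chr6:58627890-58628110), at the start of an annotated transcript with a retained intron and intronic to the coding transcripts, had 4, 1, 0 and 2 in CV, 5, 4, 4 and 3 in ENR, and 17, 19, 12 and 23 in EN. There EN stood apart, by 2.97 ± 0.39 from CV (adjusted p = 1.1e-05 by limma) and 1.89 ± 0.39 from ENR (adjusted p = 0.0017 by limma). Its sequence is shown as the start-site region with the largest rise among ABC genes, on the plus strand of chr6:58627851-58628150, with a TCF/LEF motif (ATCAAAG) in capitals.
Abcg2-inner: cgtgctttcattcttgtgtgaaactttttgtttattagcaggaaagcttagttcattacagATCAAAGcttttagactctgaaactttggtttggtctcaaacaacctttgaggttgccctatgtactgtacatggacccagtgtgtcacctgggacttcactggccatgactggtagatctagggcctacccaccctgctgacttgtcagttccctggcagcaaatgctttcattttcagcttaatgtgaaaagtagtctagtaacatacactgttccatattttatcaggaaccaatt

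Regions anywhere in an ABC gene or within 10000 bp of it were added after the data had been seen. Of 192 such regions 42 rose and 27 fell in ATAC from CV to EN, against the 35.2% of all regions that changed, with 36 higher and 31 lower after quantile normalization. From ENR to EN the balance was the other way, with 20 that rose and 29 that fell, against 24.0% of all regions. At the locus of Abcg5 8 of 9 regions rose and none fell, and at that of Abcg8, which overlaps it, 5 of 6 rose and none fell. Of these the region with the highest EN score, chr17:85071746-85072167 inside Abcg5, went from a mean score of 66.8 to 128 (0.95 ± 0.13, adjusted p = 1.8e-05 by limma). At Abcc2 4 of 12 rose and none fell, among them chr19:43867518-43867772 with 1 in CV and 17.8 in EN (3.18 ± 0.43, adjusted p = 1.5e-05 by limma), and at Abcg2 4 of 13 rose and none fell. Other loci went against their RNA. At Abcb8 1 of 8 regions rose and 4 fell, and at Abcb9 1 of 7 rose and 2 fell, while the RNA of both genes rose after TMM. Abcc4 had 31 regions, of which 3 rose and 7 fell. A region at chr14:118981625-118981964 fell from 12 to 1 (-2.79 ± 0.33) and another at chr14:119034625-119035256 rose from 55.8 to 116 (1.06 ± 0.17), so that this locus moved in both directions while its RNA fell.

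H3K27ac marks active promoters and enhancers and was scored in 3 libraries per culture. Valproic acid was in CV medium alone, and any direct effect of it on acetylation cannot be told apart from cell type here. From CV to EN 9 of 29 ABC start-site regions changed, 6 higher and 3 lower, against 7.03% of all regions and 19% of start-site regions. From ENR to EN 3 rose and none fell, against 1.57% and 3.72%. At Abcc1 the scores were 81, 86 and 98 in CV, 55, 58 and 49 in ENR, and 29, 23 and 28 in EN (-1.69 ± 0.32, adjusted p = 0.00079 by limma). The 3 cultures were separate and in the order of the RNA, at a region whose ATAC scores overlapped. At Abcd3 the scores were 178, 102 and 124 in CV, 194, 200 and 187 in ENR, and 277, 301 and 309 in EN (1.17 ± 0.19, adjusted p = 8.4e-05 by limma). Here EN was highest and CV lowest, whereas Abcd3 RNA was lowest in ENR. At Abcb1b CV had 24, 15 and 25 and EN 3, 2 and 3 (-2.59 ± 0.57, adjusted p = 0.0031 by limma). At the coding start of Abcg2 CV had 57, 44 and 76 and EN 122, 133 and 157 (1.23 ± 0.28, adjusted p = 0.0044 by limma). At Abcc2 ENR had 19, 14 and 18 and EN 102, 51 and 90 (2.14 ± 0.40, adjusted p = 0.0025 by limma), with 43, 37 and 23 in CV. The calls of Abcc1, Abcd3 and Abcb1b held without any 1 of the 6 libraries, but the count fell from 9 to 4 without EN2 and to 5 without EN3 or EN4, to 3 (1 higher, 2 lower) after quantile normalization, to 1 without a trend in the fit and to 0 with the replicate number as a block. From ENR to EN no call was left without EN2 or EN4, and 1 without ENR2 or EN3.

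H3K4me3, the mark of active promoters, changed at 4 of 29 ABC start-site regions from CV to EN (2 higher, 2 lower; 4.9% of all regions and 9.6% of start-site regions) and at 6 from ENR to EN (4 higher, 2 lower; 6.18% and 5.72%). At Abcc4 the scores were 51, 48 and 40 in CV, 44, 40 and 41 in ENR, and 16, 25 and 24 in EN (-1.08 ± 0.19 from CV, adjusted p = 0.017 by limma). At Abcb1b they were 25, 20 and 27 in CV, 21, 19 and 22 in ENR, and 11, 10 and 10 in EN (-1.13 ± 0.16 from CV, adjusted p = 0.0067 by limma). EN was lowest at both, with ENR near CV, although Abcb1b RNA and ATAC were as low in ENR as in EN. These calls rest on few libraries. From CV to EN none was left without EN2, 1 without CV2 and 2 without CV3, CV4 or EN4, and from ENR to EN none was left without EN2, 1 without ENR1 or EN4 and 2 without ENR4. H3K27me3, a repressive mark, changed at 0 of 29 regions by limma in either comparison, with 0 also at an unadjusted p under 0.05, against 0.528% and 0.0127% of all regions and 0.37% and 0.0498% of start-site regions. In data simulated over all regions this test found 6% of 4-fold changes, so most such changes were not detectable at this depth. Recovery at start-site regions alone was not measured.

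Hnf4g, a nuclear receptor of enterocytes, was profiled in 1 library per culture, so its values have no replicate check. The libraries held 84340 reads in regions in CV, 352600 in ENR and 1816497 in EN, and 3 reads correspond to 35.6, 8.51 and 1.65 rpm (reads scaled to the reads in regions of the library). In EN the Abcd3 start-site region (chr3:121516841-121518684) held 499 reads, or 275 rpm (95% exact Poisson interval 251 to 300, counting error only). It ranked 73 among all 94469 regions in EN and also held 113 reads (320 rpm) in ENR and 16 reads (190 rpm) in CV. The coding start of Abcg2 followed with 197 reads (108 rpm, 93.8 to 125), then Abcb10 with 128 (70.5 rpm), Abca3 with 103 (56.7 rpm) and Abcf1 with 102 (56.2 rpm). In CV the Abcb8 region held the most reads of the ABC regions, 24 (285 rpm), against 4 (11.3 rpm) in ENR and 56 (30.8 rpm) in EN. An rpm value is a share of the reads of its own library, so it does not compare the amount of binding between cultures. The paper reports that Hnf4g binding was nearly absent in CV, against a large number of peaks in EN. The region shared by Abcg5 and Abcg8 held 17 reads (9.36 rpm, 5.45 to 15), against a median of 17.1 rpm over all start-site regions. Values in rpm were not divided by region length. The shared region is 474 bp long, shorter than the median start-site region of 1038 bp, and the Abcd3 region is 1843 bp long. The median over the 29 ABC regions was 33.6 rpm and 20 lay above 17.1, with a median length of 1243 bp against 1038 bp for all start-site regions. Reads at ABC start sites thus ranged from 0 at the narrow Abca3 region, with an interval from 0 to 2.03 rpm, to those of Abcd3, within the highest 1% of start-site regions (above 199 rpm).

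**Figure D5:**
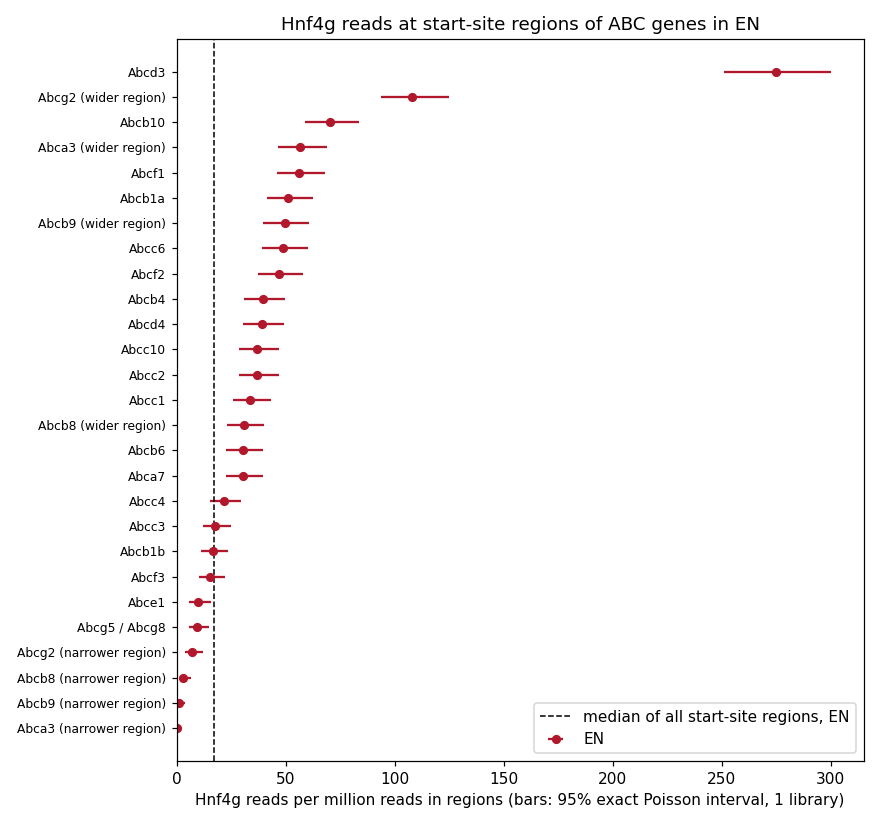
Hnf4g signal in rpm of reads in regions (x axis, from 0) at the start-site regions of the ABC genes reported here in the EN library, with 95% exact Poisson intervals as bars and the median of all start-site regions (17.1) as a dashed line. The Abcd3 region stands alone at 275 and the shared Abcg5 and Abcg8 region lies below the line at 9.36. Values are not divided by region length, 1843 bp and 474 bp for these regions.

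Motifs were searched on both strands in 300-base windows at the centre of each region and in RefSeq promoters (GRCm38.p6), of which 28 windows of 21 ABC genes were found. The HNF4 motif CAAAGTCCA occurred in 2.28% of all regions, 0.735% of start-site regions and 0.475% of RefSeq promoters, and in 1 ABC promoter, that of Abcd3, but in no central window of an ABC start-site region. This is the ABC gene with most Hnf4g reads at its start, so the promoter is shown from 250 bases before to 30 after the start, on the minus strand at chr3:121518191-121518470 in mm9, with the motif in capitals just past the start.
Abcd3: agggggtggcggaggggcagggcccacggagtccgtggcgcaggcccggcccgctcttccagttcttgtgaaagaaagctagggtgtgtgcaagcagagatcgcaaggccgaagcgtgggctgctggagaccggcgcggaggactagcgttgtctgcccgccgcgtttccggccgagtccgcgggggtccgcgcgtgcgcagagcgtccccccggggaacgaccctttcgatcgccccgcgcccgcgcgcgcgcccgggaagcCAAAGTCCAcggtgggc
CAAAGGTCA, the other HNF4 motif, was in 2.11% of regions and 0.478% of promoters, and a direct repeat of AGGTCA spaced by 4 bases (DR4) in 0.00742% and 0.0152%. Neither was in a start-site window or promoter of an ABC gene. ATCAAAG was in 5.57% of regions and 3.73% of promoters, and among ABC start-site windows only in the inner region of Abcg2. CACGTG was in 5.98% of regions and 7.15% of promoters, and in the promoters of Abcc4 and Abcf1 and the start-site window of Abcb1b. The presence of these letters does not show that a factor was bound, and their absence shows only that they are not in these windows.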

How the data were processed

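RNA-seq, ATAC-seq and ChIPmentation of organoid cultures were analysed by culture as the sample titles give it. For RNA the authors deposited expected counts from kallisto (0.43.0 in the submitters' processing notes), with an index of transcripts whose proteins had been quantified, beside TPM values and mRNA copies scaled to spike-ins. TPM from the authors and the deposited copies were used as alternatives. Reads of the other assays were aligned by the authors with BWA to mm9, and peaks were called with MACS2 2.0. Per the file headers and methods, ATAC and histone values are a score for each merged peak region, normalized and rounded by the authors. For Hnf4g the deposited values are raw counts.

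Expected counts were rounded and fitted with edgeR 4.0.16 (TMM, quasi-likelihood test, all 12 libraries, Benjamini-Hochberg adjustment over 9288 transcripts) in R 4.3.3. CPM are per library size after TMM. Scores were tested with limma 3.58.1 (trend) on log2(score + 1), for regions above 0 in at least 3 libraries, at an adjusted p under 0.05. Values after ± are standard errors of log2 differences unless SD is stated. Tested on simulated data, the RNA test recovered 93% of 200 2-fold changes among 9231 transcripts with 3 false calls. For EN against CV, the region test, simulated over all regions, recovered 26.5% of 2-fold and 97.5% of 4-fold changes in ATAC. It recovered 3% and 36% in H3K27ac, and 11.5% and 88% in H3K4me3. Replicate libraries differed by more than counting noise (chi-square per degree of freedom 2.37 to 6.67), so none was a duplicate. DESeq2 1.42.0, spike-in scaling, TPM, copies, filters, a replicate block and leaving out each library were alternatives.

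The members and gene lists were chosen with earlier results of these data known. Per role group, members with the largest and smallest change and those not called were to be given in full. Abcg5, Abcg8, Abcg2, Abcc1, Abcc2, Abcc4 and Abcb1b were given in full after their values were seen. Gene positions follow GENCODE on mm9, and promoters come from RefSeq tables matched to mm9. Other histone libraries and the Hnf4g knockout were not analysed here. Some genes enter the counts but are not reported here by name.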

Additional observations from a re-analysis of the deposited data

Results flagged for a closer look

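A library that stood apart from the other 3 of its culture was looked for in 79 groups of RNA values and 87 groups of ATAC values of ABC genes, as a gap to the nearest library that, as a share of the range of the group, exceeds Dixon's 95% critical value for 4 libraries. It was found in 2 RNA groups and 3 ATAC groups. Chance alone gives about 1 in 20 groups, so this number is not more than chance would give.

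In RNA, Abcb1b in EN had 3.46 CPM in EN4 against 0.642, 1.07 and 1.07 in the others, a gap of 0.847 of the range. The NM_013854.1 transcript of Abcf1 in EN had 73.3 CPM in EN3 against 103, 106 and 106 (0.907 of the range). In ATAC, the Abcc1 start-site region in CV had a score of 47 in CV3 against 69, 70 and 71 (0.917), the Abcb6 region in CV had 55 in CV2 against 47, 48 and 48 (0.875), and the region shared by Abcg5 and Abcg8 in ENR had 52 in ENR2 against 43, 44 and 44 (0.889).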

How the results depend on the processing

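Counts of changed ABC features were recomputed under each alternative. For RNA, 24, 21 and 17 transcripts changed between EN and CV, EN and ENR, and CV and ENR. A further limit of 2-fold left 15 between EN and CV and 6 between CV and ENR, where the deposited copies left 10. Without 1 library the counts were 23 to 24, 19 to 23 and 17 to 18. For regions, fitting without a trend gave 3 in ATAC and 0 in H3K27ac between EN and ENR, and 1 in H3K27ac and 2 in H3K4me3 between EN and CV, and quantile normalization gave 3 in H3K27ac between EN and CV. Without 1 library the ranges were 12 to 12 and 4 to 8 in ATAC (EN against CV, then against ENR), 4 to 9 and 0 to 2 in H3K27ac, 0 to 5 and 0 to 8 in H3K4me3 and 0 to 0 in H3K27me3. The cause of these shifts was not tested.

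With the replicate number as a block, H3K27ac gave 0 in both comparisons and H3K4me3 gave 2 between EN and CV. RNA gave 24, 20 and 18. ATAC gave 12 and 8. Same-numbered libraries deviated together with r of -0.059 to 0.0955 in RNA, 0.0695 to 0.46 in ATAC, -0.0518 to 0.0357 in H3K27ac and -0.0813 to 0.131 in H3K4me3, so the numbers were not taken to pair the samples, although in ATAC 9 of 12 libraries were closest to a library of their own number.

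Small differences turned with the scale. Between EN and CV, the deposited copies gave 0.63 for Abcb1a, 0.08 for Abcb6 and 0.60 for Abcf1 NM_013854.1. Spike-ins gave -0.11 for Abcc10, -0.23 for Abcd3, -0.13 for Abcd4 and -0.14 for Abcf3, and TPM with a pseudocount of 1 or 5 gave -0.13 and -0.13 for Abcd3, -0.04 and -0.03 for Abcd4, and -0.05 and -0.05 for Abcf3. Between EN and ENR, spike-ins gave -0.01 for Abcb6, -0.09 for Abcc10, -0.08 for Abcd4, -0.24 and -0.43 for Abcf1 NM_013854.1 and XM_006524122.2, and -0.36 for Abcf3. Copies gave 0.61 for Abcb8 and 0.33 for Abcf2, and TPM gave -0.13 and -0.08 for Abcf1 XM_006524122.2 and -0.02 and -0.02 for Abcf3. Abcf1 XM_006524122.2 was 0.00 with the replicate block, -0.02 without EN1 and -0.06 without EN3 (range without 1 library -0.06 to 0.23). Between CV and ENR, spike-ins gave -0.05 for Abca3, copies gave 0.04 for Abcb9, 0.10 for Abcc2 and 0.12 for Abcf3, and TPM gave 0.06 and 0.06 for Abcc2 and 0.03 and 0.03 for Abcf3. In ATAC between EN and CV, Abcc1 was -0.09 after quantile normalization and -0.07 without CV3, and Abcd3 was 0.06 without EN1 (range without 1 library -0.16 to 0.06).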

Other observations

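ABC proteins named by other symbols were also measured. Cftr, the chloride channel of the crypt, had 157 CPM in CV and 92.2 CPM in EN, a log2 change of -0.76 ± 0.05 (adjusted p = 3e-10 by edgeR). Tap2, a subunit of the peptide transporter for antigen presentation, rose by 0.68 ± 0.09 (adjusted p = 2.3e-06 by edgeR), whereas its partner Tap1 had 49.8 CPM in CV and 46.1 CPM in EN, which overlapped (-0.12, adjusted p = 0.17 by edgeR). On the deposited mRNA copies, the ABC transcripts summed to 758 to 1064 copies per CV library, 357 to 838 per ENR library and 2493 to 3564 per EN library, so that EN lay above both other cultures. Over all transcripts the copies summed to 645250 to 870829 per CV library, 498750 to 1577570 per ENR library and 1554680 to 2546650 per EN library, so that the total was also higher in EN than in CV.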
